A study of Rattus norvegicus with 30 samples.

Results

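Nuclear receptors and the coregulators that bind them were followed in cultured rat hepatocytes treated with WY-14643 (pirinixic acid), a synthetic ligand of the fatty acid receptor PPARα. The set holds 43 genes chosen by symbol, and a probe set was assigned to a gene only when that symbol was its single annotated one. Of the 31099 probe sets on the array, 76 belonged to 42 of these genes, and no probe set carried Nr6a1 alone. A filter on signal, described with the counts below, left 35 of the 43 genes among 11545 genes tested. By role the 43 are 3 fatty acid receptors, 3 retinoid X receptors, 6 receptors for retinoic acid, thyroid hormone or vitamin D, 5 steroid and estrogen-related receptors, 7 sterol, bile acid and xenobiotic receptors, 3 clock receptors, 9 orphan receptors and 7 coregulators.

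All groups used hepatocytes from male Sprague Dawley rats that were bought frozen and cultured between collagen and a Matrigel overlay. On day 3 of culture, wells received vehicle (labelled 1% DMSO), 8 µM WY-14643 or 200 µM WY-14643, and RNA was taken after 24 h or 48 h, giving 6 groups of 5 wells and 30 arrays. The labels name no other agent and do not state the DMSO share of the dosed wells. Nor do they state how many animals supplied the cells, so errors and p-values describe the spread between wells. The question put by the design is how each dose altered expression relative to the vehicle of its own time.

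Nuclear receptors are transcription factors switched by small lipophilic molecules such as fatty acids, bile acids, oxysterols, steroids and retinoids. Many, PPARα among them, bind DNA as heterodimers with a retinoid X receptor, at paired copies of the sequence AGGTCA or close variants of it. A receptor without agonist tends to hold corepressors such as NCOR1, and an agonist favours the exchange for coactivators such as the NCOA proteins and the MED1 subunit of Mediator. In liver these receptors divide the control of fat oxidation, bile acid synthesis, drug clearance, glucose output and daily rhythm.

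The array measures transcripts and not binding, but the stretches of DNA in front of the receptor genes show which of them carry the letters that receptors of this family bind. RefSeq start sites on the GRCr8 build were matched for 35 of the 43 genes (43 start sites). In the 250 bases before the start, AGGTCA on either strand occurred in 4 of the 35 genes (11.4%, in Esrrg, Nr1d2, Nr5a2 and Rarg) and at 14.1% of all 33469 start sites in the table. The paired form called DR1, in which 1 base parts 2 copies of AGGTCA in the same direction and which overlaps the single motif, occurred in 0 of the 35 and at 0.0508% of all start sites. CACGTG, the E-box bound by clock activators, occurred in 2 of the 35 (5.71%, in Nr0b2 and at 1 of the start sites of Nr1d1) and at 5.59% of all start sites. A member was counted once if any of its start sites held the motif, while the whole table was counted by start site. The shares are thus not counted alike, which tends to raise those of the members. Shown are Rxrg, which had the largest called change of the set, and 3 called members that do hold one of these motifs, Nr5a2, Nr1d2 and Nr1d1. Each reads 5′ to 3′ along the gene and ends at the base before the start site, and capitals mark the motif. They lie at chr13:82276237-82276486 (plus strand), chr13:50984939-50985188 (minus strand), chr15:9954784-9955033 (plus strand) and chr10:84229455-84229704 (minus strand).
Rxrg: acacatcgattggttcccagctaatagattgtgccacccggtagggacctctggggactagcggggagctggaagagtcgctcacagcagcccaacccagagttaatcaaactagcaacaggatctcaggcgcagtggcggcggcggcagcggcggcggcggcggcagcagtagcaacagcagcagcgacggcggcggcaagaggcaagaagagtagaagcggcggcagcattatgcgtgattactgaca
Nr5a2: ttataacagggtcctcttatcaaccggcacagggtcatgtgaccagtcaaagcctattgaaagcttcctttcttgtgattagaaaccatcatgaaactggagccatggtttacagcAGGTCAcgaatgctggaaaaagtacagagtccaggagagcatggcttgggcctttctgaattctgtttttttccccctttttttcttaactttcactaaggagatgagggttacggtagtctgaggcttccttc
Nr1d2: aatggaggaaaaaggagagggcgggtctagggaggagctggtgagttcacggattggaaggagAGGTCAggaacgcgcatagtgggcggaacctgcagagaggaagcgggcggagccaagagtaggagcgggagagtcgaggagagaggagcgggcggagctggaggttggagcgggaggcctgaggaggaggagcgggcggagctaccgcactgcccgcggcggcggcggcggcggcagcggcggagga
Nr1d1: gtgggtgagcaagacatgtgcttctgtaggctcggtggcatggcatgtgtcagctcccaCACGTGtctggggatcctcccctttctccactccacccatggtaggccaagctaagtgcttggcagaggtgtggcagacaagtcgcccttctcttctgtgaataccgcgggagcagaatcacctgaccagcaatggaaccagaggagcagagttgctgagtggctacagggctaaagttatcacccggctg
None of the searched motifs was found in the Rxrg stretch. The AGGTCA of Nr5a2 began 134 bases before the start site and that of Nr1d2 began 187 bases before it, both on the strand of the gene, and the CACGTG of Nr1d1 began 191 bases before its start site. These matches are letters in a window and no measure of receptor binding.

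Values are MAS5 signals, which are linear, and a log2 fold change is that of signal plus 16. A probe set was kept if 5 or more of the 30 arrays read above 281, which is the 40th percentile of the signals. Below, rose, fell and changed refer to an adjusted p under 0.05 in limma, with Benjamini-Hochberg adjustment over all 11545 genes, and values after ± are standard errors for log2 fold changes and SDs (n = 5 wells) for signals. The array of 48 h vehicle replicate 4 stood apart, with a median signal of 765.5 against 384.7 to 439.4 on the other 29, so counts are given with and without it. The β-actin 3′ to 5′ ratio, which reflects RNA length and labelling, averaged 2.86 ± 0.278 in vehicle and 3.10 ± 0.214 and 3.31 ± 0.169 at 8 and 200 µM at 24 h, then 2.61 ± 0.313, 3.26 ± 0.417 and 3.10 ± 0.201 at 48 h. Its part in the results was not tested. All 7 measured hepatocyte markers passed the filter, with mean signals from 44850 (Ass1) to 71800 (Alb).

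At 24 h, 8 µM WY-14643 raised 9 and lowered 7 of the 35 measured members, which is 45.7% of them, where 24.9% of all genes tested were called (11.1% higher and 13.8% lower). At 200 µM, 8 rose and 7 fell (42.9%, against 24.7% of all genes, 11.6% higher and 13.1% lower). At 48 h, 12 rose and 7 fell at 8 µM (54.3%, against 35.6%, 16.7% higher and 18.9% lower). At 200 µM and 48 h, 13 rose and 6 fell (54.3%, against 33.8%, 16.8% higher and 17.1% lower). In each comparison the called share was thus higher among the members than among all genes. Without 48 h vehicle replicate 4 the counts were 10 and 8, 9 and 7, 11 and 7, and 13 and 7 in the same order, with 30.7%, 30.9%, 37.0% and 36.0% of all genes called. Centring each array on its median, with that array kept, gave 5 and 2, 3 and 2, 11 and 1, and 12 and 1. These were 20%, 14.3%, 34.3% and 37.1% of the members, against 12.7%, 11.7%, 24.7% and 22.9% of all genes. The share of called members that were higher went from 56.2%, 53.3%, 63.2% and 68.4% to 71.4%, 60%, 91.7% and 92.3%, and the median log2 fold change of all genes at 48 h from -0.063 to 0.129 at 8 µM and from -0.049 to 0.119 at 200 µM. The same centring without that array gave 10 and 8, 9 and 7, 11 and 7, and 11 and 7, which were 51.4%, 45.7%, 51.4% and 51.4% of the members against 27.6%, 28.3%, 34.5% and 33.4% of all genes. The median log2 fold changes of the members lay between -0.033 and 0.13, so rises and falls were mixed, and those of all genes lay between -0.063 and -0.017. Both doses of a time were compared with the same vehicle wells, so their results are not independent of each other.

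**Figure D1:**
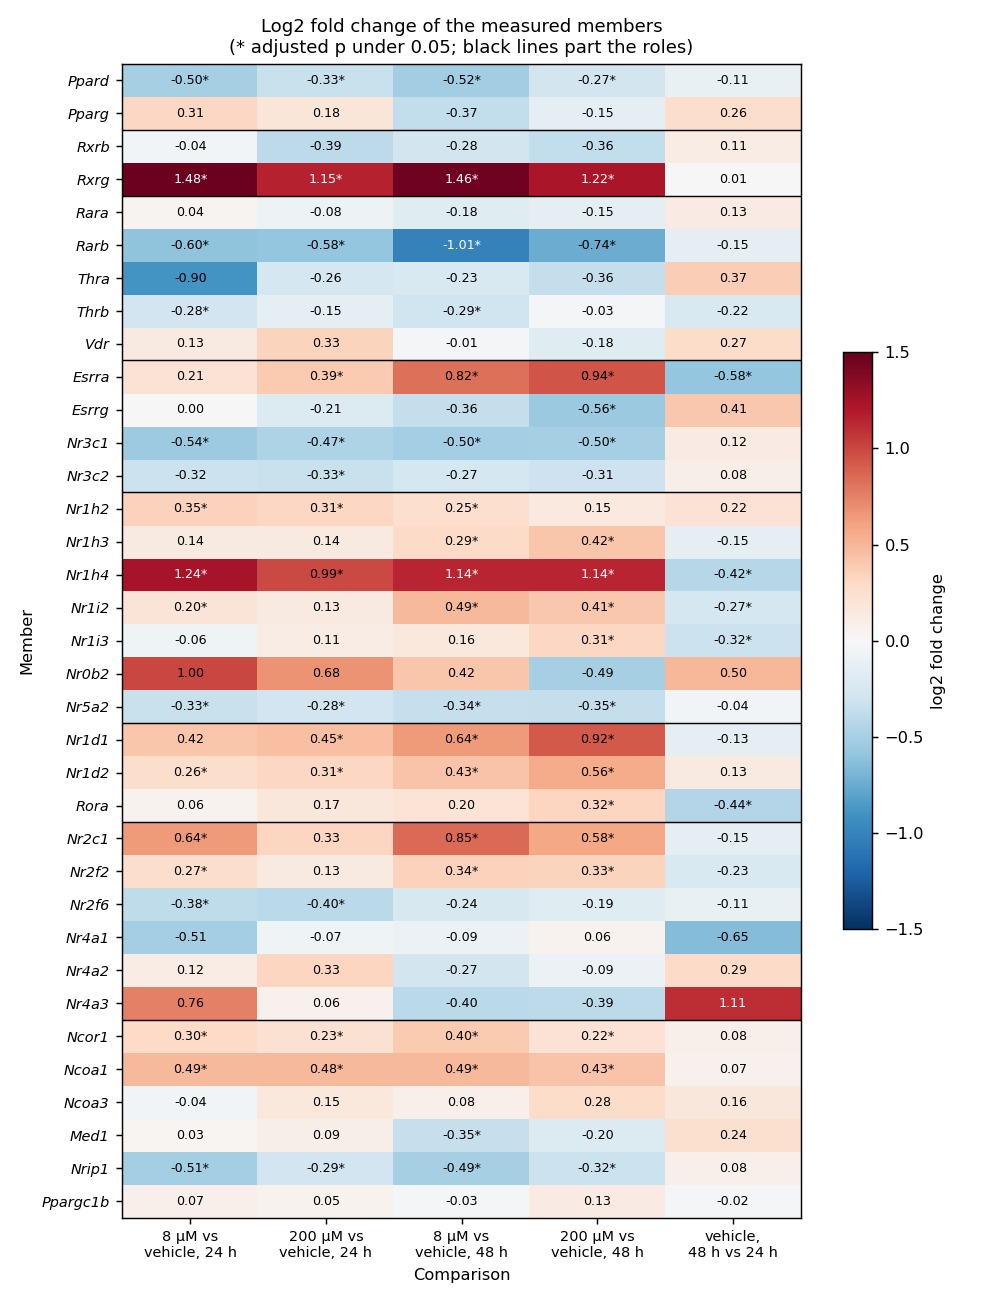
Log2 fold change of each of the 35 measured members (rows, by role) in the 4 comparisons of a dose with vehicle and in vehicle over time (columns). Colour and printed number give the value and an asterisk marks an adjusted p under 0.05. Rxrg and Nr1h4 carry the strongest reds in the 4 treated columns, and Rarb at 8 µM and 48 h the strongest called blue.

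Among the fatty acid receptors, the receptor of WY-14643 itself gave little signal. Its probe set exceeded the filter value in too few arrays for Ppara to be tested with the others. At 24 h the Ppara signals were 329, 119.9, 347, 133 and 118 in vehicle wells, 128, 140.0, 209.6, 63.4 and 65.3 at 8 µM and 145, 61.2, 64, 66.7 and 135 at 200 µM. The 48 h signals were 199.6, 62.4, 46.9, 182 and 87.3 in vehicle, 63.1, 45.2, 49.7, 129 and 57.1 at 8 µM and 124, 138, 91.9, 112 and 123 at 200 µM. The highest readings, 329 and 347, were both in 24 h vehicle wells, but the groups overlapped at both times. In the same fit without a filter, over 14217 genes, Ppara had log2 fold changes of -0.68 (adjusted p = 0.255), -0.96 (0.0784), -0.54 (0.32) and 0.19 (0.778) for 8 µM and 200 µM at 24 h and the same doses at 48 h, and it was not called, where 19.7%, 19.7%, 28.8% and 27.3% of all genes were.

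Ppard, which encodes the widely expressed PPARδ, fell at both doses and both times. Its mean signal went from 1995 ± 245 in 24 h vehicle wells to 1408 ± 156 at 8 µM and 1575 ± 89.2 at 200 µM, and from 1848 ± 221 to 1291 ± 222 and 1521 ± 113 at 48 h. The log2 fold changes were -0.50 ± 0.10 (adjusted p = 0.000359), -0.33 ± 0.10 (0.0169), -0.52 ± 0.10 (0.000148) and -0.27 ± 0.10 (0.0415) in the order 8 µM and 200 µM at 24 h, then 8 µM and 200 µM at 48 h, an order kept wherever 4 values follow. At 24 h the treated wells did not overlap with the vehicle wells, and at 48 h they did. The call at 200 µM and 24 h was lost without vehicle replicate 3 of that time. The call at 200 µM and 48 h was lost without any of 8 arrays of that time (vehicle replicates 1, 2, 3 and 5 and 200 µM replicates 1, 2, 4 and 5), and under quantile normalization, median centring and a fit of the compared groups alone. Pparg, which encodes the adipogenic receptor PPARγ, was called in no comparison, with log2 fold changes between -0.37 and 0.31.

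The largest rise in the set was that of Rxrg, which encodes RXRγ, one of the obligate partners of PPARα. At 24 h its signals were 1963, 2153, 2068, 2064 and 2279.5 in the vehicle wells, 6177, 5669, 6024, 5799.5 and 5718 at 8 µM and 4829, 5213, 4547, 4728 and 4244 at 200 µM. At 48 h they were 2166, 2054, 2214, 2458 and 1750.2 in vehicle, 5459, 6272, 5385, 5898 and 6318 at 8 µM and 4805, 4831, 4978, 4977 and 5174 at 200 µM. Every treated well lay above every vehicle well, and every 8 µM well lay above every 200 µM well of its time. The rises were 2.78-fold, 2.23-fold, 2.75-fold and 2.33-fold, or 1.48 ± 0.07, 1.15 ± 0.07, 1.46 ± 0.07 and 1.22 ± 0.07 on the log2 scale, with adjusted p of 5.94e-18, 4.7e-15, 4.35e-18 and 6.95e-16. The dose comparison itself was called for Rxrg at both times, with log2 differences (200 µM minus 8 µM) of -0.32 ± 0.07 (adjusted p = 0.00475) at 24 h and -0.24 ± 0.07 (0.0375) at 48 h. The adjusted p at 48 h exceeded 0.05 when any of 7 arrays was left out (8 µM replicates 2, 4 and 5 and 200 µM replicates 1 to 4 of that time), and both dose calls were lost under median centring and when kept probe sets were averaged.

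These values come from 1 of the kept probe sets of Rxrg, and the other did not share the change. That second probe set read 469, 567, 495, 426 and 341 in 24 h vehicle wells, 517, 502, 531, 464 and 451 at 8 µM and 468, 491, 442, 498 and 393 at 200 µM. At 48 h it read 448, 348, 399.8, 1483 and 449 in vehicle, the fourth value being from the array that stood apart, then 387, 535, 383, 410.5 and 432 at 8 µM and 375, 497, 375, 304 and 381 at 200 µM. Its groups overlapped in every comparison, and its log2 fold changes of 0.11, 0.01, -0.31 and -0.46 were not called (adjusted p = 0.816, 0.985, 0.352 and 0.149). Which transcripts each probe set detects was not examined.

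Rxrb, which encodes the widely expressed RXRβ, was measured and not called, with log2 fold changes of -0.036 ± 0.19, -0.39 ± 0.19, -0.28 ± 0.19 and -0.36 ± 0.19. Rxra, which encodes the main retinoid X receptor of liver, was below the filter on its probe set, where single wells read between 90.1 and 341. In the fit without a filter its 4 log2 fold changes lay between -0.38 and 0.15 and none was called.

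**Figure D2:**
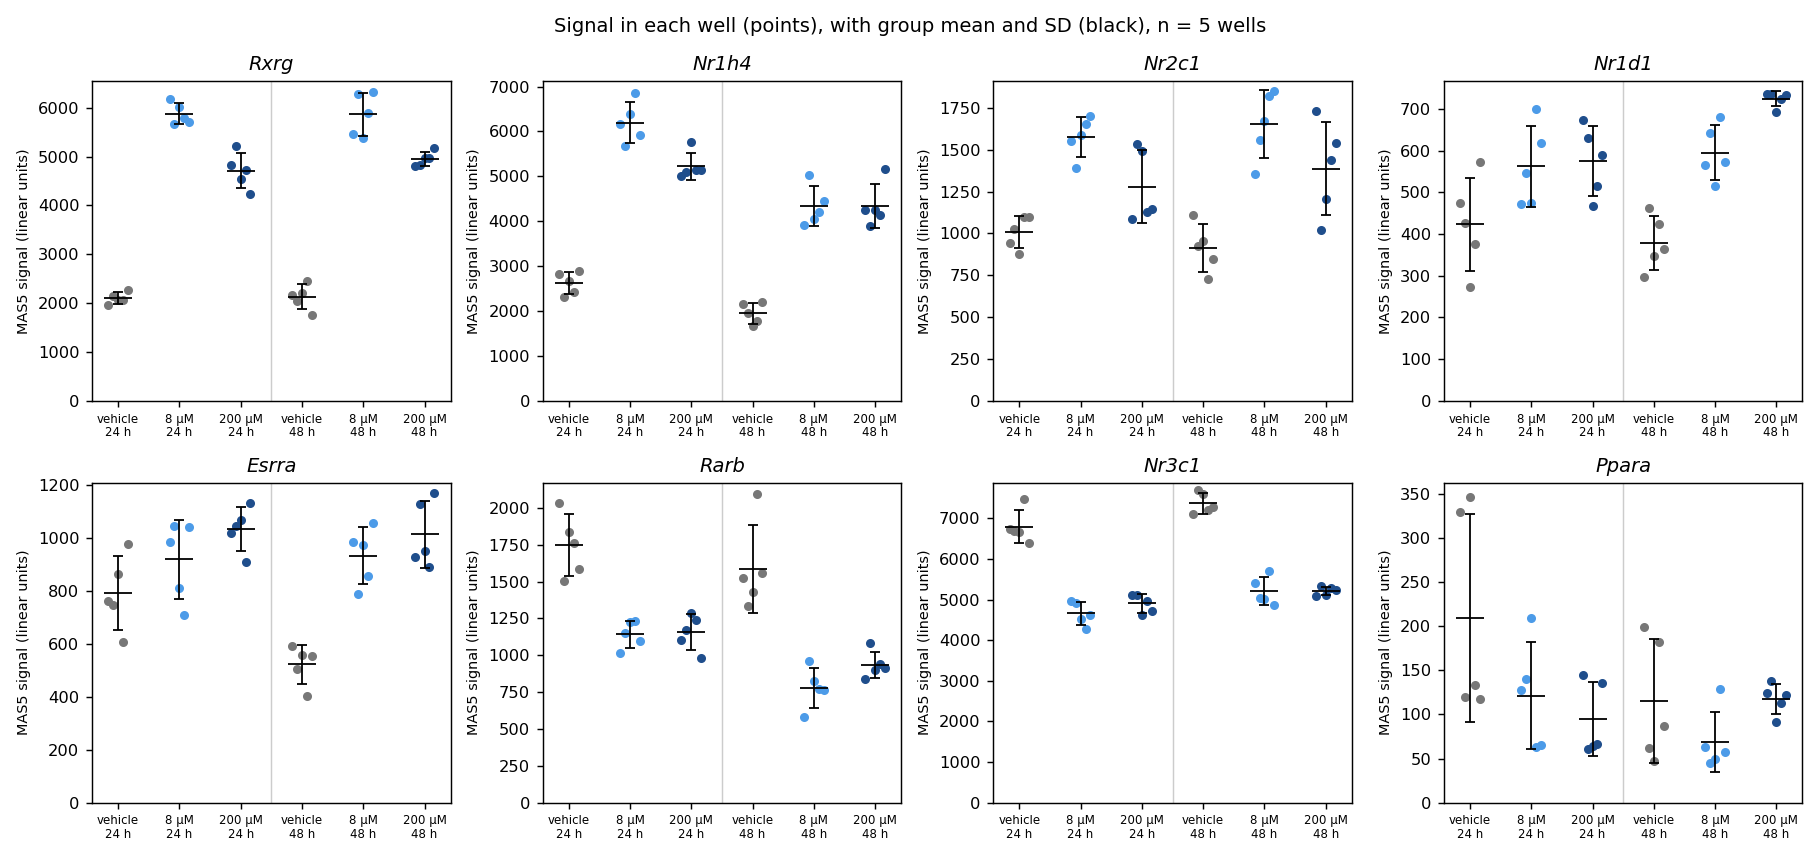
MAS5 signal (linear units, axes from 0) in each of the 5 wells of 6 groups for the 6 members that changed at least 1.5-fold in a comparison with vehicle, and for Nr3c1 and Ppara. Points are wells and black marks the group mean with its SD. The treated wells of Rxrg and Nr1h4 lie clear above vehicle, those of Rarb and Nr3c1 lie clear below, and those of Ppara overlap with vehicle.

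Of the receptors for retinoic acid, thyroid hormone and vitamin D, 2 of the 5 measured fell at 8 µM and 1 at 200 µM, at each time, and none rose. These are 40% and 20% of the 5, against 24.9% and 24.7% of all genes at 24 h and 35.6% and 33.8% at 48 h, so the share at 200 µM was below that of all genes. Rarb encodes RARβ, a receptor whose gene is itself a classical retinoic acid target, and it fell most. At 24 h its signals were 2036, 1501, 1839, 1764 and 1588 in vehicle wells, 1014, 1153, 1227, 1229.7 and 1097 at 8 µM and 1103, 1172, 1289.9, 1239 and 981 at 200 µM. The 48 h signals were 1522, 1333, 1427, 2095 and 1557 in vehicle, 582, 960.0, 823, 773 and 766 at 8 µM and 841, 1081, 899, 938 and 916 at 200 µM. No treated well reached the lowest vehicle well of its time. The log2 fold changes were -0.60 ± 0.12 (adjusted p = 0.000209), -0.58 ± 0.12 (0.000288), -1.01 ± 0.12 (2.46e-08) and -0.74 ± 0.12 (7.61e-06).

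Thrb, which encodes the main thyroid hormone receptor of hepatocytes, fell at 8 µM, with log2 fold changes of -0.28 ± 0.09 (adjusted p = 0.018) at 24 h and -0.29 ± 0.09 (0.00973) at 48 h, and was not called at 200 µM (-0.15 ± 0.09 and -0.033 ± 0.09). A second kept probe set of Thrb gave -0.54 and -0.50 at 8 µM and was also called (adjusted p = 0.014 and 0.0185). The 24 h call of Thrb was lost without vehicle replicate 2 or 3 or 8 µM replicate 5 of that time. The difference between the doses was not called for Thrb, with an adjusted p of 0.625 at 24 h and 0.0935 at 48 h. Rara, Thra and Vdr, which encode RARα, the thyroid hormone receptor TRα and the vitamin D receptor, were not called, and the wells of Thra ranged from 75.9 to 1757. Rarg, which encodes RARγ, was below the filter and was not called without it.

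Rarb is also expressed by stellate cells of liver, so their markers are given here. Of the 7 stellate cell and fibroblast markers on the array 5 passed the filter, and Lrat and Pdgfrb did not. Their summed signal was 3748 to 4039 in the 24 h vehicle wells, 2918 to 3793 at 8 µM and 2809 to 3294 at 200 µM. At 48 h it was 3982 to 6676, 3479 to 3899 and 2787 to 3469 in the same order. The 200 µM wells did not overlap with vehicle at either time, and the 8 µM wells did at 24 h only. In the 4 comparisons 1, 1, 2 and 4 of these 5 markers fell and 0 rose, with medians of -0.15, -0.16, -0.42 and -0.68. The called shares were 20%, 20%, 40% and 80%, against 24.9%, 24.7%, 35.6% and 33.8% of all genes. The summed hepatocyte markers were at 468600 to 559000 in 24 h vehicle wells, 414400 to 454000 at 8 µM and 424200 to 472900 at 200 µM. At 48 h they were at 356800 to 526500, 350400 to 400100 and 344500 to 389700 in the same order. Their medians were lower than in vehicle at both doses and times, but only the 8 µM wells at 24 h did not overlap with vehicle. Of the 7 hepatocyte markers 3, 2, 4 and 4 were called lower in the 4 comparisons and 0 higher. These are 42.9%, 28.6%, 57.1% and 57.1%, to be read against the same shares of all genes. No marker was listed at 0. The part of stellate cells in the fall of Rarb was not tested, and in bulk RNA fewer cells of a type and less RNA per cell cannot be told apart. Markers of Kupffer cells (5 of 6), endothelial cells (5 of 5) and cholangiocytes (2 of 4) also passed the filter. Their summed signals at 200 µM had lower medians than in vehicle at both times. Of those that passed, Cd163 (237.9), Stab2 (268.7), Tek (273) and Krt19 (181.7) had mean signals below the filter value of 281. The others ranged from 297.5 (Pecam1) to 1472 (Cd68), apart from Epcam at 9356, which made up most of the cholangiocyte sum.

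The steroid and estrogen-related receptors moved in both directions. Nr3c1 encodes the glucocorticoid receptor, which drives glucose output and many liver-specific genes. It fell from 6792 ± 407 to 4664 ± 286 at 8 µM and 4908 ± 228 at 200 µM at 24 h, and from 7379 ± 259 to 5205 ± 344 and 5216 ± 107 at 48 h. No treated well overlapped with vehicle, and the log2 fold changes of -0.54 ± 0.054, -0.47 ± 0.054, -0.50 ± 0.054 and -0.50 ± 0.054 had adjusted p of 8.21e-10, 2.35e-08, 2.75e-09 and 4.02e-09. A second probe set of Nr3c1 was lower in all 4 comparisons and was called at 8 µM, at -1.01 (adjusted p = 0.0241) and -0.90 (0.0347). With the probe sets of Nr3c1 averaged, the call at 200 µM and 48 h was lost. Nr3c2, which encodes the mineralocorticoid receptor, was called once, at 200 µM and 24 h (-0.33 ± 0.12, adjusted p = 0.0485), and that call was lost when any of 20 arrays was left out.

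Esrra encodes ERRα, an orphan receptor that controls mitochondrial genes together with PGC-1 coactivators. At 24 h its signals were 763, 747, 862, 606 and 979 in vehicle, 985, 1046, 812, 711 and 1041 at 8 µM and 1018, 1047, 1069, 909 and 1133 at 200 µM. At 48 h they were 592, 504, 559, 401 and 556 in vehicle, 985, 790.0, 973, 855 and 1058 at 8 µM and 929.8, 1127, 951, 891 and 1171 at 200 µM. The groups overlapped at 24 h, and at 48 h every treated well lay above every vehicle well. Esrra was not called at 8 µM and 24 h (0.21 ± 0.13, adjusted p = 0.282) and rose in the other comparisons, by 0.39 ± 0.13 (0.0263), 0.82 ± 0.13 (6.54e-06) and 0.94 ± 0.13 (7.41e-07). The call at 200 µM and 24 h was lost without vehicle replicate 1, 2 or 4 or 200 µM replicate 3 or 5 of that time. Treated means were 919 ± 150.0 and 932 ± 108 at 8 µM and 1035 ± 82.4 and 1014 ± 126 at 200 µM, while the vehicle mean was 792 ± 139 at 24 h and 522 ± 74.7 at 48 h. The difference between the effects at 48 h and at 24 h was not called (0.61 ± 0.19, adjusted p = 0.0746, at 8 µM and 0.55 ± 0.19, 0.142, at 200 µM).

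Its relative Esrrg, which encodes ERRγ, was called once, at 200 µM and 48 h (-0.56 ± 0.16, adjusted p = 0.00697). A second kept probe set of Esrrg was called in a different comparison, 8 µM at 24 h, at -1.22 (adjusted p = 0.00117), with wells of 47.4 to 213 against 248 to 364 in vehicle. Esr1, which encodes the estrogen receptor ERα, was below the filter and was not called without it.

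Among the sterol, bile acid and xenobiotic receptors, the bile acid receptor rose most. Nr1h4 encodes FXR, which senses bile acids and limits their synthesis. At 24 h its signals were 2831, 2318, 2663, 2414 and 2901 in vehicle, 6155, 5675, 6381, 6863 and 5913 at 8 µM and 5011, 5094, 5759, 5139 and 5149.7 at 200 µM. The 48 h signals were 2164, 1966, 1660.3, 1788 and 2199 in vehicle, 3926, 5039, 4041, 4212 and 4459 at 8 µM and 4244, 3893, 4249, 4147 and 5161 at 200 µM. Every treated well lay above every vehicle well of its time, and the 8 µM and 200 µM wells overlapped with each other. The rises were 2.36-fold, 1.99-fold, 2.21-fold and 2.21-fold, or 1.24 ± 0.084, 0.99 ± 0.084, 1.14 ± 0.084 and 1.14 ± 0.084 on the log2 scale (adjusted p = 7.32e-14, 2.18e-11, 3.55e-13 and 4.61e-13).

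The transcript of Nr0b2, which encodes SHP, the repressor that FXR induces, was measured with wide scatter and was not called. Its wells ranged from 33.1 to 1204, and its log2 fold changes of 1.00 ± 0.60, 0.68 ± 0.60, 0.42 ± 0.60 and -0.49 ± 0.60 carried large standard errors. Without 48 h vehicle replicate 4 the 48 h values of Nr0b2 were 1.05 and 0.14, so the value at 200 µM changed sign, and neither was called. Nr5a2 encodes LRH-1, which activates bile acid synthesis genes and is held back by SHP. It fell, with log2 fold changes of -0.33 ± 0.08 (adjusted p = 0.00169), -0.28 ± 0.08 (0.00702), -0.34 ± 0.08 (0.000793) and -0.35 ± 0.08 (0.000636), and its mean signal was 2057 ± 41.7 in 24 h vehicle wells and 1636 ± 111 at 8 µM. A second kept probe set of Nr5a2 was at -0.69, -0.58, -0.10 and -0.05 and was not called, and with both averaged the call was lost in all but the first comparison.

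The oxysterol receptors rose modestly. Nr1h2, which encodes LXRβ, rose by 0.35 ± 0.079 (adjusted p = 0.0009), 0.31 ± 0.079 (0.00323) and 0.25 ± 0.079 (0.0113) and was not called at 200 µM and 48 h (0.15 ± 0.079). Nr1h3, which encodes LXRα, the main oxysterol receptor of liver, was called at 48 h, at 0.29 ± 0.11 (0.0304) and 0.42 ± 0.11 (0.00213). The 48 h vehicle wells of Nr1h3 read 6672, 7336, 6708, 3783 and 6299, the fourth from the array that stood apart, and without that array the values were 0.12 (adjusted p = 0.152) at 8 µM and 0.25 (0.00308) at 200 µM. The 8 µM call was also lost without 8 µM replicate 2 or 5 of that time.

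The xenobiotic receptors PXR and CAR induce drug-metabolising enzymes. Nr1i2, which encodes PXR, rose by 0.20 ± 0.061 (adjusted p = 0.0143) at 8 µM and 24 h, by 0.49 ± 0.061 (6.5e-08) at 8 µM and 48 h and by 0.41 ± 0.061 (2.21e-06) at 200 µM and 48 h, where no treated well overlapped with vehicle. The 24 h call of Nr1i2 was lost without 8 µM replicate 2 or vehicle replicate 4 of that time. Nr1i3, which encodes CAR, was called once, at 200 µM and 48 h (0.31 ± 0.08, 0.00268), and its log2 fold changes elsewhere lay between -0.06 and 0.16.

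All 3 clock receptors were called higher at 200 µM and 48 h, where 16.8% of all genes were called higher. The call of Rora was not stable, as described below. Nr1d1 and Nr1d2 encode REV-ERBα and REV-ERBβ, heme-binding repressors in the circadian clock. The 24 h signals of Nr1d1 were 473, 426, 272, 376 and 572 in vehicle, 472, 547, 473, 699 and 618 at 8 µM and 673, 629, 468, 515 and 589.6 at 200 µM. At 48 h they were 297, 462, 348, 425 and 364 in vehicle, 566, 641, 516, 680.4 and 571 at 8 µM and 736, 736, 693, 724 and 734 at 200 µM. The groups overlapped at 24 h, and at 48 h vehicle, 8 µM and 200 µM formed 3 ranges that did not overlap. The log2 fold changes of Nr1d1 were 0.42 ± 0.16 (adjusted p = 0.0603, not called), 0.45 ± 0.16 (0.0389), 0.64 ± 0.16 (0.00227) and 0.92 ± 0.16 (2.91e-05), and the step from 8 µM to 200 µM at 48 h was not called (0.28 ± 0.16, 0.451). The call at 200 µM and 24 h was lost without vehicle replicate 2, 3 or 4 or 200 µM replicate 1, 2 or 5 of that time.

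Nr1d2 rose by 0.26 ± 0.082 (adjusted p = 0.016), 0.31 ± 0.082 (0.00471), 0.43 ± 0.082 (9.13e-05) and 0.56 ± 0.082 (1.72e-06). A second probe set of Nr1d2 passed the same test in the last 3 of these comparisons, at 0.33, 0.35 and 0.48, and was at 0.00 in the first. In that first comparison the call of Nr1d2 was lost with the probe sets averaged and without 8 µM replicate 2 or 4. Rora encodes RORα, the activator that shares binding sites with the REV-ERB proteins. It was called at 200 µM and 48 h (0.32 ± 0.12, 0.0427), and there without 48 h vehicle replicate 4 the value was 0.18 (adjusted p = 0.192). That call was also lost without vehicle replicate 5 or 200 µM replicate 1, 2 or 4 of that time. A second probe set of Rora pointed the other way in that comparison (-0.45, adjusted p = 0.0799). With both averaged, Rora was at -0.065 and was not called.

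Of the 6 measured orphan receptors, Nr2c1 changed most. It encodes TR2, a receptor that binds direct repeats and competes with other nuclear receptors for them. At 24 h its signals were 945, 1024, 875, 1096 and 1099.6 in vehicle, 1554, 1388, 1589, 1651 and 1701 at 8 µM and 1087, 1537, 1494, 1127 and 1145 at 200 µM. The 48 h signals were 1112, 925, 955, 728 and 846 in vehicle, 1358, 1555, 1669, 1820.0 and 1853 at 8 µM and 1732, 1021, 1206, 1436 and 1540.2 at 200 µM. The 8 µM wells stood above all vehicle wells at both times, and the 200 µM wells overlapped with vehicle at both. The log2 fold changes were 0.64 ± 0.13 (adjusted p = 0.000216), 0.33 ± 0.13 (0.0622, not called), 0.85 ± 0.13 (2.31e-06) and 0.58 ± 0.13 (0.000497). The dose difference of Nr2c1 was not called (-0.31 ± 0.13, 0.253, at 24 h and -0.26 ± 0.13, 0.33, at 48 h).

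The COUP-TF relatives went in opposite directions. Nr2f2, which encodes COUP-TFII, rose at 8 µM and 24 h (0.27 ± 0.10, adjusted p = 0.0394) and at both doses at 48 h (0.34 ± 0.10, 0.0046, and 0.33 ± 0.10, 0.00676). The other kept probe set of Nr2f2 was at 0.15, -0.04, 0.03 and -0.08 and was not called, and all 3 calls were lost with both averaged. The 24 h call was also lost without vehicle replicate 2, 3, 4 or 5 or 8 µM replicate 1, 4 or 5 of that time. Nr2f6, which encodes EAR2, fell at 24 h at both doses (-0.38 ± 0.10, 0.00422, and -0.40 ± 0.10, 0.00294), with no overlap between treated and vehicle wells, and both calls were lost with its kept probe sets averaged. At 48 h Nr2f6 was not called with all arrays and was called without 48 h vehicle replicate 4, at -0.36 (adjusted p = 0.0012) and -0.30 (0.00548). Another kept probe set of Nr2f6 was called lower at 8 µM and 48 h with all arrays, at -0.55 (adjusted p = 0.0472). At 200 µM and 48 h that probe set was at -0.46 (0.11). The remaining kept probe sets of Nr2f6 lay between -0.59 and 0.22 at 48 h and were not called. The immediate early receptors Nr4a1, Nr4a2 and Nr4a3 were not called, and the 48 h vehicle wells of Nr4a3 ran from 298 to 2353, the latter on the array that stood apart. Nr2c2 and Nr2f1, which encode TR4 and COUP-TFI, were below the filter and were not called without it.

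Coregulators also moved in both directions. Ncoa1, which encodes the coactivator SRC-1, rose by 0.49 ± 0.11 (adjusted p = 0.000675), 0.48 ± 0.11 (0.000807), 0.49 ± 0.11 (0.00053) and 0.43 ± 0.11 (0.00225), and its mean signal was 1879 ± 279 in 24 h vehicle wells and 2644 ± 375 at 8 µM. Ncor1, which encodes a corepressor that brings histone deacetylase to receptors without agonist, rose by 0.30 ± 0.066 (0.000514), 0.23 ± 0.066 (0.00738), 0.40 ± 0.066 (9.02e-06) and 0.22 ± 0.066 (0.0094). Nrip1 encodes RIP140, which binds receptors that carry agonist and represses their targets. It fell, with log2 fold changes of -0.51 ± 0.10 (0.000208), -0.29 ± 0.10 (0.0359), -0.49 ± 0.10 (0.000218) and -0.32 ± 0.10 (0.0142), from a mean of 2349 ± 245 to 1641 ± 110.0 at 8 µM and 24 h. The 200 µM call of Nrip1 was lost at 24 h without vehicle replicate 1, 2 or 4 or 200 µM replicate 1, 2 or 3 of that time, and at 48 h without vehicle replicate 1.

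Other probe sets of Ncor1 and Ncoa1 were kept and were not called in any of these comparisons. With probe sets averaged, Ncor1 kept its call at 8 µM and 48 h and lost it in the other 3 comparisons, and Ncoa1 kept all 4. Med1, a Mediator subunit and coactivator of PPARα, was called once, at 8 µM and 48 h (-0.35 ± 0.13, adjusted p = 0.0352), where a second probe set gave -0.98 (0.0231). Without 48 h vehicle replicate 4 the value of Med1 was -0.27 (adjusted p = 0.103), and the call was also lost without vehicle replicate 1 or 8 µM replicate 1 or 2 of that time. Ncoa3 and Ppargc1b, which encode SRC-3 and PGC-1β, were not called with all arrays. Without 48 h vehicle replicate 4, Ncoa3 was called at 200 µM and 48 h, at 0.55 (adjusted p = 0.0493) against 0.28 with it. Ncoa2, which encodes SRC-2, was below the filter and was not called without it.

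Several members thus have probe sets that differ in outcome. For 13 measured members more than 1 probe set was kept. Over the 4 comparisons with vehicle, 42 values came from other probe sets of a member that was called, of which 8 were called in the same direction, 34 were not called and 0 were called in the opposite direction. The probe set with the highest mean signal stands for each gene here.

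Between the doses, 1 of 35 members was called at 24 h (2.86%, against 3.02% of all genes, 1.63% called lower) and 1 at 48 h (2.86%, against 4.79%, 2.53% called lower), both times Rxrg, described above. The second kept probe set of Nr1d2 was also called at 24 h, higher at 200 µM than at 8 µM (0.33, adjusted p = 0.0246). The probe set that stands for Nr1d2 was at 0.045 there and was not called. Without 48 h vehicle replicate 4, Ncor1 was also called between the doses at 48 h, at -0.18, and 8.98% of all genes were called. Nr1h4 had a difference of -0.24 ± 0.084 (adjusted p = 0.133) at 24 h and 0.00019 ± 0.084 at 48 h, and Nr3c1 of 0.074 ± 0.054 and 0.0051 ± 0.054.

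Between the times, vehicle and treated wells were separate wells, so the effect at 24 h and the effect at 48 h rest on different wells. At 8 µM, 16 members were called at 24 h and 19 at 48 h, and 15 were called in the same direction at both, which is 93.8% of the first list and 78.9% of the second. Over all genes these shares were 78.3% and 54.7%. At 200 µM, 15 and 19 were called and 12 coincided in direction (80% and 63.2%, against 77.1% and 56.4% over all genes), and 0 members were called in opposite directions at either dose. The change of a dose's effect over time did not reach an adjusted p under 0.05 for any of the 35 members in limma, where 2.9% of all genes were called at 8 µM and 2.41% at 200 µM. At an unadjusted p under 0.05 there were 5 members at 8 µM and 3 at 200 µM, and without 24 h vehicle replicate 4 the adjusted calls were 2 and 1. The shares of all genes at these settings are not given here, so these counts cannot be read against them. The lowest adjusted p was that of Nr1i2 at both doses (0.29 ± 0.086, 0.0623, and 0.27 ± 0.086, 0.101).

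**Figure D3:**
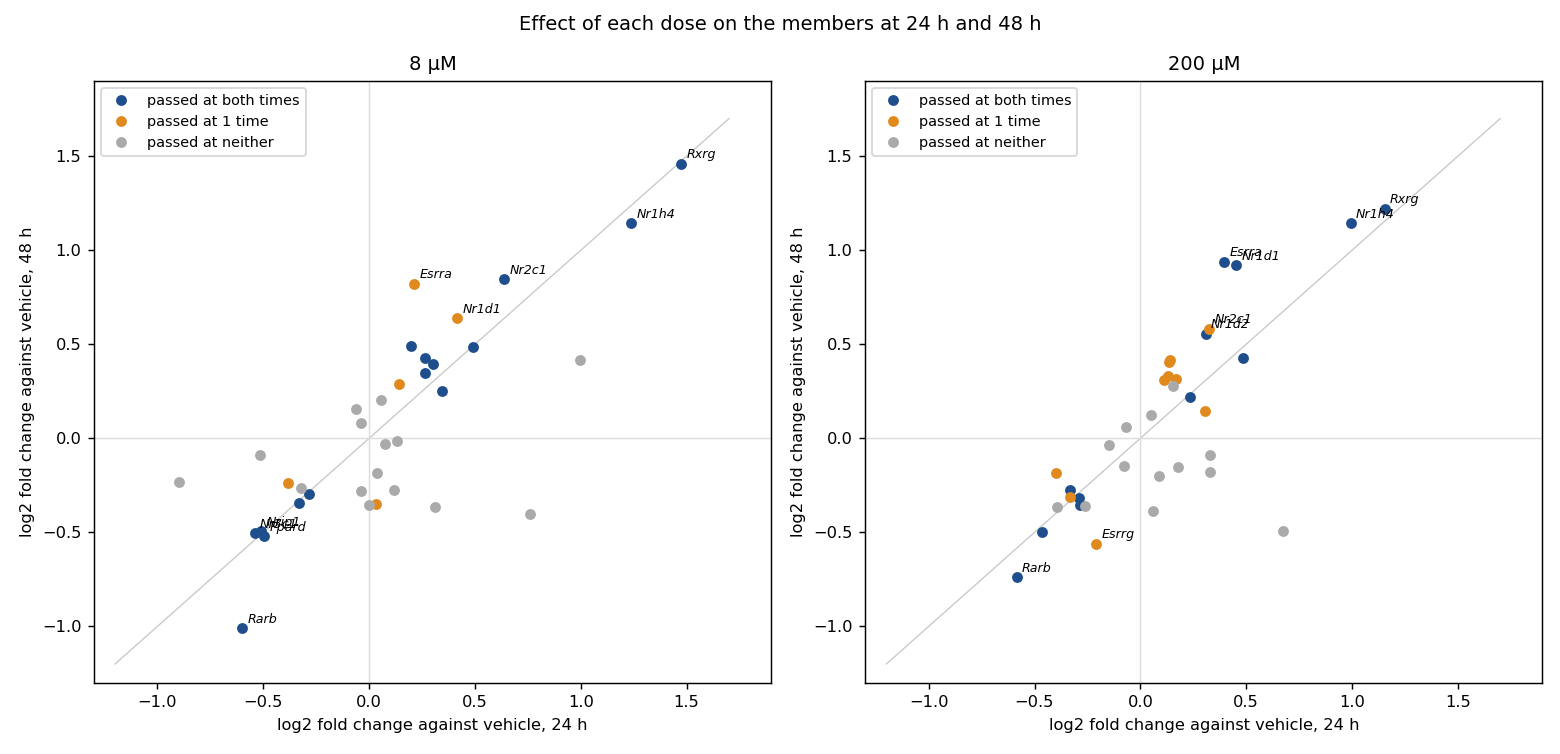
Log2 fold change against vehicle at 24 h (horizontal axis) and 48 h (vertical axis) of the 35 measured members, for 8 µM (left) and 200 µM (right). Blue points passed the test at both times, orange at 1 and grey at neither, the grey line marks equal values, and names are given to members that passed and exceed 0.5 in size. Rxrg and Nr1h4 lie far to the upper right and Rarb to the lower left in both plots.

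The vehicle wells themselves changed between 24 h and 48 h. In these, 5 of the 35 members were called (14.3%, against 9.87% of all genes, 5.4% called lower), and all 5 fell. The log2 fold change was -0.58 ± 0.13 for Esrra (adjusted p = 0.00376), -0.42 ± 0.084 for Nr1h4 (0.000762), -0.27 ± 0.061 for Nr1i2 (0.00362), -0.32 ± 0.08 for Nr1i3 (0.00904) and, for Rora, -0.44 ± 0.12 (0.0183). Of these, Nr1h4, Nr1i2 and Nr1i3 are the receptors of liver for bile acids and foreign compounds. Their 24 h vehicle means were 2626 ± 254, 4547 ± 455 and 3013 ± 124, and their 48 h vehicle means 1955 ± 233, 3761 ± 162 and 2422 ± 230.1, with no overlap between the times. The 48 h vehicle wells also serve as controls for the doses at 48 h, so these falls and the 48 h effects of the same genes share wells. Without 48 h vehicle replicate 4, Rora was no longer called over time, Nr1h2 rose by 0.25, and 10.7% of all genes were called. Rora was also not called without 24 h vehicle replicate 3. Median centring without 48 h vehicle replicate 4 left 1 member higher and 2 lower, with Nr1i2 and Nr1i3 no longer called, and a fit of the vehicle wells alone left 1 call, Nr1h4. Of the 5 measured Kupffer cell markers 2 fell over the same time, with a median log2 fold change of -0.61 against 0.02 for all genes, and their part in these falls was not tested.

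**Figure D4:**
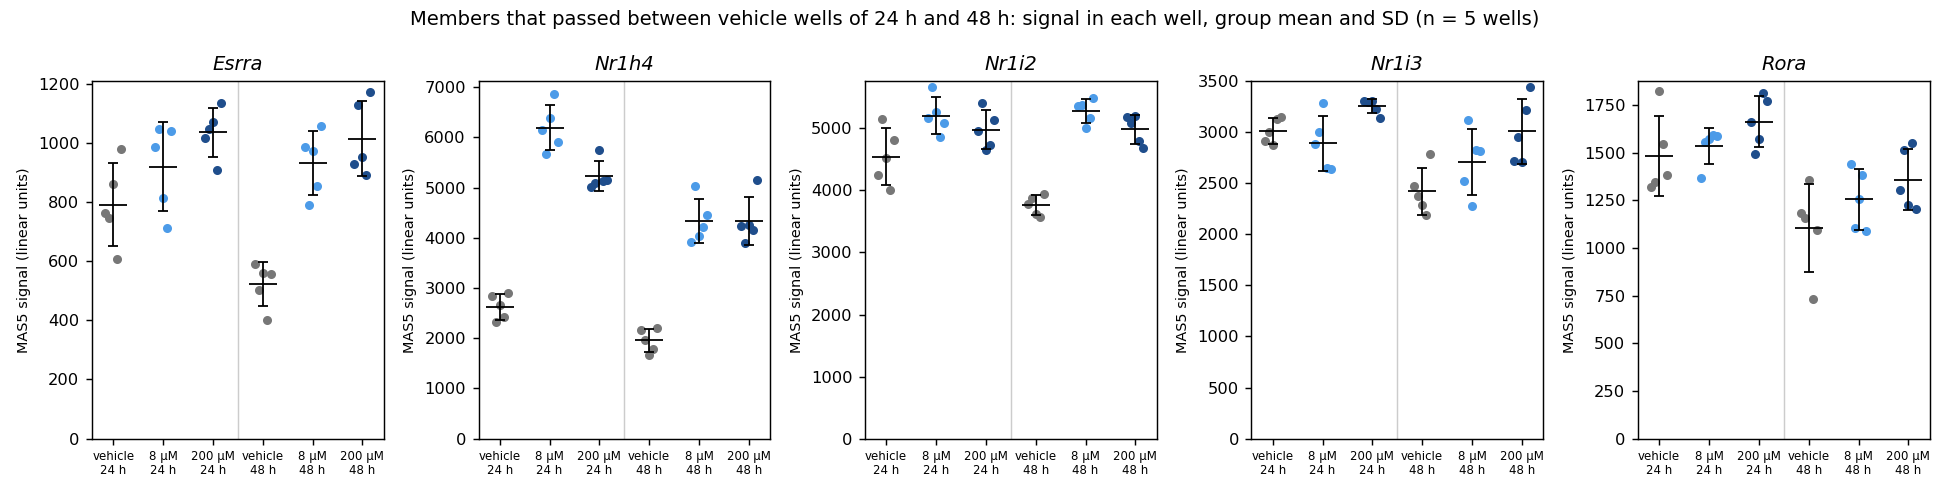
MAS5 signal (linear units, axes from 0) in each of 5 wells per group for the 5 members that fell between 24 h and 48 h vehicle wells, with group mean and SD in black. In each plot the 48 h vehicle points sit below the 24 h vehicle points on average, and those of Rora overlap.

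Other genes of the same system were read from lists written out by name. Each list's called share is to be read against 24.9%, 24.7%, 35.6% and 33.8% of all genes called in the 4 comparisons. Of 5 measured receptors outside the set, the one call over the 4 comparisons was the fall of Esrrb, which encodes ERRβ, at 200 µM and 48 h (-0.56, adjusted p = 0.0298). The medians of this list were 0.16, -0.024, 0.023 and 0.12, where those of all genes were -0.029, -0.017, -0.063 and -0.049. Hnf4a, the receptor HNF4α that maintains hepatocyte identity, had log2 fold changes of -0.06, 0.05, -0.09 and 0.12, none called. Of 37 other coregulators, 6 rose and 11 fell at 8 µM and 24 h, 5 and 9 at 200 µM, then 4 and 10, and 3 and 10 at 48 h, with medians of -0.14, -0.14, -0.069 and -0.023. The called shares were 45.9%, 37.8%, 37.8% and 35.1%, so at 48 h they were near those of all genes. The largest moderated statistics in that list were those of Cited2, a CBP/p300-binding coregulator (-1.16, -1.33, -0.97 and -1.21), and of Lpin1, a phosphatidate phosphatase that also coactivates PPARα (-1.14, -0.97, -0.74 and -0.85).

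Textbook targets of the receptors were read in the same way. Of 30 measured PPARα targets 29 rose and 0 fell in each of the 4 comparisons, which is 96.7% of the list, with medians of 2.08, 1.98, 2.16 and 2.05. Cyp4a1, whose product hydroxylates fatty acids, was at 3.82, 3.86, 3.21 and 3.16, and Fabp1, which encodes the fatty acid carrier of liver, at 2.22, 1.76, 3.55 and 3.17. This stands beside a Ppara transcript that was not called. Of 10 measured FXR targets 1 rose and 5 fell at each dose at 24 h, and 1 rose and 7 fell at each dose at 48 h, while Nr1h4 itself rose, and the medians were -0.41, -0.28, -0.55 and -0.55. The called shares were 60% at 24 h and 80% at 48 h. Abcb4, the canalicular phospholipid transporter in that list, was at -0.99, -0.41, -1.49 and -0.82.

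Of 11 LXR targets 4 rose and 1 fell, 4 and 2, 6 and 1, and 6 and 0 in the 4 comparisons, with called shares of 45.5%, 54.5%, 63.6% and 54.5% and medians of 0.19, 0.20, 0.41 and 0.32. Lpcat3, which remodels phospholipids, was at 1.75, 1.73, 1.83 and 1.76. Of 15 PXR and CAR targets 2 rose and 5 fell, 3 and 4, 4 and 6, and 7 and 4, with called shares of 46.7%, 46.7%, 66.7% and 73.3% and medians of -0.13, 0.029, 0.061 and 0.30. Their most changed members went apart, the retinaldehyde dehydrogenase gene Aldh1a1 at 1.62, 1.48, 1.74 and 1.62 and the conjugate exporter gene Abcc2 at -1.27, -0.53, -1.62 and -0.67.

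Of 16 glucocorticoid receptor targets 1 rose and 8 fell, 2 and 6, 2 and 8, and 2 and 5, with medians of -0.26, -0.12, -0.41 and -0.10. The called shares were 56.2%, 50%, 62.5% and 43.8%. Tat, a tyrosine-degrading enzyme, was at -1.54, -0.76, -1.46 and -0.86, and Pck1, the gluconeogenic enzyme that is also a target of other receptors, at 1.54, 2.17, 1.34 and 1.95. Of 9 thyroid hormone targets 3 rose and 2 fell, 2 and 3, 3 and 3, and 3 and 2, with called shares of 55.6%, 55.6%, 66.7% and 55.6% and medians of 0.13, 0.094, 0.12 and -0.0061. Of 6 retinoic acid targets 1, 2, 2 and 2 rose and no fall was called, with medians of 0.23, 0.25, 0.22 and 0.056. The called shares of 16.7%, 33.3%, 33.3% and 33.3% were near or below those of all genes except at 200 µM and 24 h. Tgm2, a transglutaminase, was at 1.80, 1.5, 1.68 and 1.25. Of 9 REV-ERB and ROR targets 0 rose and 3 fell, 1 and 2, 4 and 3, and 4 and 2, with medians of -0.20, -0.022, 0.040 and 0.36. The called shares were 33.3%, 33.3%, 77.8% and 66.7%. The clock repressor Per2 was at -0.55, -0.71, -0.52 and -0.52. Some genes, such as Me1, stand in more than 1 of these lists, and the lists describe these wells without a test of the list.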

How the data were processed

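RNA of 30 wells was hybridised to 1 array each. The authors deposited 1 intensity value per probe set, made with MAS5 per the submitters' processing notes; its version, scaling target and chip definition are not given in the sources used here. The 2% trimmed mean was 1500.45 to 1500.7 on every array, so values were already scaled, and no scaling was added. Probe sets were joined to symbols by the 2016 platform annotation (20826 with 1 symbol, 436 with several, 9780 with none, 57 controls). Of 21282 probe sets above the filter, 15629 had 1 symbol, and the one with the highest mean log2 signal stood for each gene. All 30 arrays were fitted in limma 3.58.1 (R 4.3.3) with 1 mean per group and a variance trend on log2(signal + 16), two-sided, with Benjamini-Hochberg adjustment per comparison. The script was tested on simulated data. Values of each well are given for members called and changed at least 1.5-fold against vehicle, and for Ppara. For each list of other genes the 2 genes with the largest absolute moderated statistic over the 4 comparisons with vehicle may be named. The members, lists and rules were chosen with earlier results of these data known. Motifs and figures were made with Python 3.11.15 and matplotlib. Replicate numbers follow array order. No arrays held identical values. The number of arrays limits the precision (median standard error between groups 0.124). Alternatives were other pseudocounts, scalings, filters, probe set rules, fits and each array left out.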

Additional observations from a re-analysis of the deposited data

Results flagged for a closer look

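Among 48 groups of 5 wells examined (the members with well values, and the array medians), 5 held a well whose gap to its nearest neighbour took an unusually large share of the group's range, and chance alone gives about 1 in 20. Nr1h4 read 5759 in 200 µM replicate 3 at 24 h (0.815 of the range) and 5161 in 200 µM replicate 5 at 48 h (0.719). Nr1d1 read 693 in 200 µM replicate 3 at 48 h (0.717), and Ppara read 129 in 8 µM replicate 4 at 48 h (0.786). The median signal of the array of 48 h vehicle replicate 4 was 765.5 (0.932), and 73.9% of its probe sets were above the filter value against 57.9% to 61.2% on the others.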

How the results depend on the processing

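Of 76 called values of single members over all comparisons, 33 kept their call and direction under the 13 alternatives run and with each array left out, 43 lost the call in at least 1 of these, and 1 of them also reversed. The reversal was Rora at 200 µM and 48 h, which was at -0.065 (adjusted p = 0.715) when the kept probe sets of a gene were averaged. Median centring gave 7, 5 and 12 called members for 8 µM at 24 h, 200 µM at 24 h and 8 µM at 48 h. Of all genes, 12.7%, 11.7% and 24.7% were called there. It gave 0 and 0 between the doses at 24 h and 48 h (0.338% and 0.832% of all genes), and 2 in vehicle over time (2.6% of all genes). Averaging probe sets also gave 0 and 0 between the doses. Fitting only the groups compared gave 2 between the doses at 24 h and 1 in vehicle over time. For the change of the 8 µM effect over time, a filter at the 60th percentile gave 1 and array weights gave 1. Array weights gave 4 between the doses at 48 h. Median centring without 48 h vehicle replicate 4, chosen after seeing the data, gave 3 in vehicle over time (8.64% of all genes). Shares of all genes under the other alternatives in this paragraph are not given here. The causes were not tested.

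Leaving out 1 array at a time gave 14 to 18 and 12 to 16 called members at 8 and 200 µM at 24 h, 17 to 21 and 17 to 20 at 48 h, 1 and 0 to 2 between the doses at 24 h and 48 h, 0 to 2 and 0 to 1 for the changes of effect over time, and 4 to 6 in vehicle. The shares of all genes in these fits are not given here, apart from some given above without 48 h vehicle replicate 4. Between the doses at 48 h the count was 0 without 8 µM replicate 2, 4 or 5 or 200 µM replicate 2, 3 or 4, and 2 without vehicle replicate 4. A replicate block of runs of 6 array numbers gave 2 and 2 called members for the changes of the 8 and 200 µM effects over time, where the fit without it gave 0 and 0. The share of all genes under the block is not given here. Deviations of arrays in the same run had a median correlation of 0.0134 (-0.13 to 0.125), and 1 of 75 pairs exceeded 0.1, where pairing was to be used only if every pair did. No pairing was therefore used, although 13 of 30 arrays correlated best with an array of their own run, a hint from the data and not from the design.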
